A study of Mus musculus with 42 samples.

Results

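The genes described are 20 glutathione transferases and 22 other targets or regulators of the transcription factor NRF2, chosen by symbol. They make up 42 of the 43629 Ensembl genes in the count table, and each symbol matched 1 row. Expression was measured by CEL-seq, an RNA-sequencing method that reads the 3′ end of each transcript, in 2 organs, the kidney and the liver. The animals were males of UM-HET3, a genetically heterogeneous laboratory stock. All mice, controls included, were 4 months old and had eaten their diet for 1 month, from 3 months of age.

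The 30 kidney libraries came from 6 mice on the control diet (Purina 5LG6) and from 4 mice on each of 6 compounds mixed into food. These were AS-703026 (30 ppm), an inhibitor of the kinase MEK, AZD8055 (20 ppm) and KU0063794 (10 ppm), inhibitors of the kinase mTOR, and GDC-0941 (50 ppm), an inhibitor of PI3 kinase. The remaining diets held Enzastaurin (75 ppm), an inhibitor of protein kinase C, and Ascorbyl-palmitate (6.3 ppm), a fat-soluble ester of vitamin C. The 12 liver libraries came from 4 mice on each of AS-703026, Enzastaurin and GDC-0941, at the same doses. Liver on the control diet was not analysed here, so liver values are comparisons between compounds. Total counts ran from 863605 to 5691067 in kidney and from 1084591 to 4361115 in liver. The summed proximal tubule markers lay between 3674 and 15060 CPM (counts scaled to library size) in kidney, and the summed hepatocyte markers lay between 97420 and 125000 in liver and at most at 2363 in kidney. In 1 kidney library, AZD8055 replicate 4, the 8 adipocyte markers summed to 17650 CPM against 16.5 to 125 in the other kidney libraries. In another, AS-703026 replicate 4, the 7 markers of thin limb and inner medulla summed to 3109 CPM against 157 to 178 in the controls. Results on these 2 diets against control that were called or singled out are given with and without them. The tissue comparison and the interaction include AS-703026 replicate 4. In whole tissue, fewer cells of a type and less RNA per cell cannot be told apart.

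Glutathione transferases couple the tripeptide glutathione to reactive compounds so that they can be exported. They are grouped into alpha (Gsta), mu (Gstm), pi (Gstp), theta (Gstt), kappa (Gstk) and membrane-bound microsomal (Mgst) classes, and the liver is known for high levels of several of them. NRF2, encoded by Nfe2l2, is held at a low level by KEAP1, which hands it to a ubiquitin ligase. Electrophiles and oxidants free it, and it then binds antioxidant response elements near genes for detoxification, glutathione synthesis, the thioredoxin system and NADPH supply.

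The core of the antioxidant response element, TGACNNNGC, was searched on both strands in the RefSeq promoters (GRCm38.p6), from 250 bases before to 50 after the start site. It was present in 12.392% of all 32851 promoters. Of the 37 genes with a promoter entry, 11 (29.73%) held it, against 13.991% of all 27025 genes. No other motif was searched. A match is a description of the letters only. The matches below are examples from genes described later, and any link of a match to a tissue or diet difference was not tested. The core is in capitals (as its reverse complement where it lies on the other strand). Its first base is counted from the start site.
Gsta3, 121 bases before the start, chr1:21240449-21240487, plus strand: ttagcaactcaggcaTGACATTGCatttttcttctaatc
Mgst1, 56 bases before the start, chr6:138140456-138140494, plus strand: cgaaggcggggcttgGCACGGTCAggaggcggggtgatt
Txnrd1, 92 bases before the start, chr10:82859099-82859137, plus strand: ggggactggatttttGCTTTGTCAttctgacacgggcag
G6pdx, 57 bases before the start, chrX:74428914-74428952, minus strand: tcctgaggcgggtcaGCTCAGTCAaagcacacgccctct
Gclm, 134 bases before the start, chr3:122245408-122245446, plus strand: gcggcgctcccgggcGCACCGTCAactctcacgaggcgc
The other genes with a core match were Nfe2l2, Srxn1, Gstm5, Gstm7, Prdx1 and Pgd.

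Some of the genes could not be read from these counts. Gstp1 and Gstp2, the pi-class enzymes, had 0 counts in all 42 libraries. Their coding sequences (630 bases, minus strand of chromosome 19, GRCm38) differed at 12 positions, an identity of 98.1%, and their last 60 coding bases were the same, which is why the stretch is shown for both.
Gstp1, chr19:4035476-4035535, and Gstp2, chr19:4040354-4040413: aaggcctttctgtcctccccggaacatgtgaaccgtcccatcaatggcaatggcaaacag
Of the 24-base words in the last 600 bases of their transcripts, 74.7% (Gstp1) and 65.3% (Gstp2) also occurred in another gene. The related gene model Gstp-ps was counted in every library, at a median of 1.79 CPM in kidney (0.579 to 6.27) and 45.01 in liver (28.8 to 92.1). The same measure was 97.4% for Gsta1 (29 counts over all libraries), 94.7% for Gpx4 (268 counts) and 79.4% for Gsta2. How reads that fit several genes were counted is not given in the sources used here, so 0 or low counts of these genes do not show that they were silent, and Gsta2 values are uncertain. Shares of 10% to 40% were found for Gstm1 (39.2%), Gstt3 (31.5%), Prdx1 (29.8%), Gstm2 (25.9%), G6pdx (23.1%), Gstm6 (22.3%), Cbr1 (21.7%), Taldo1 (13.6%) and Gstm3 (11.4%). Gstm5, Gclm, Keap1 and G6pdx overlap a gene on the opposite strand, and the strand setting of the counting is not given. Mgst2 (93 counts), Slc7a11 (176) and Cbr3 (160) were low without such copies.

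After the filter on low counts, 36 of the 42 genes were tested in kidney (15 transferases, 21 others), 35 in liver (16 and 19) and 37 in the fit that joined both tissues (16 and 21). Levels are CPM scaled by TMM within a tissue unless said otherwise. A gene was called at an adjusted p under 0.05 (edgeR quasi-likelihood test, Benjamini-Hochberg over all genes tested), and changes are log2 values ± SE.

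**Figure D1:**
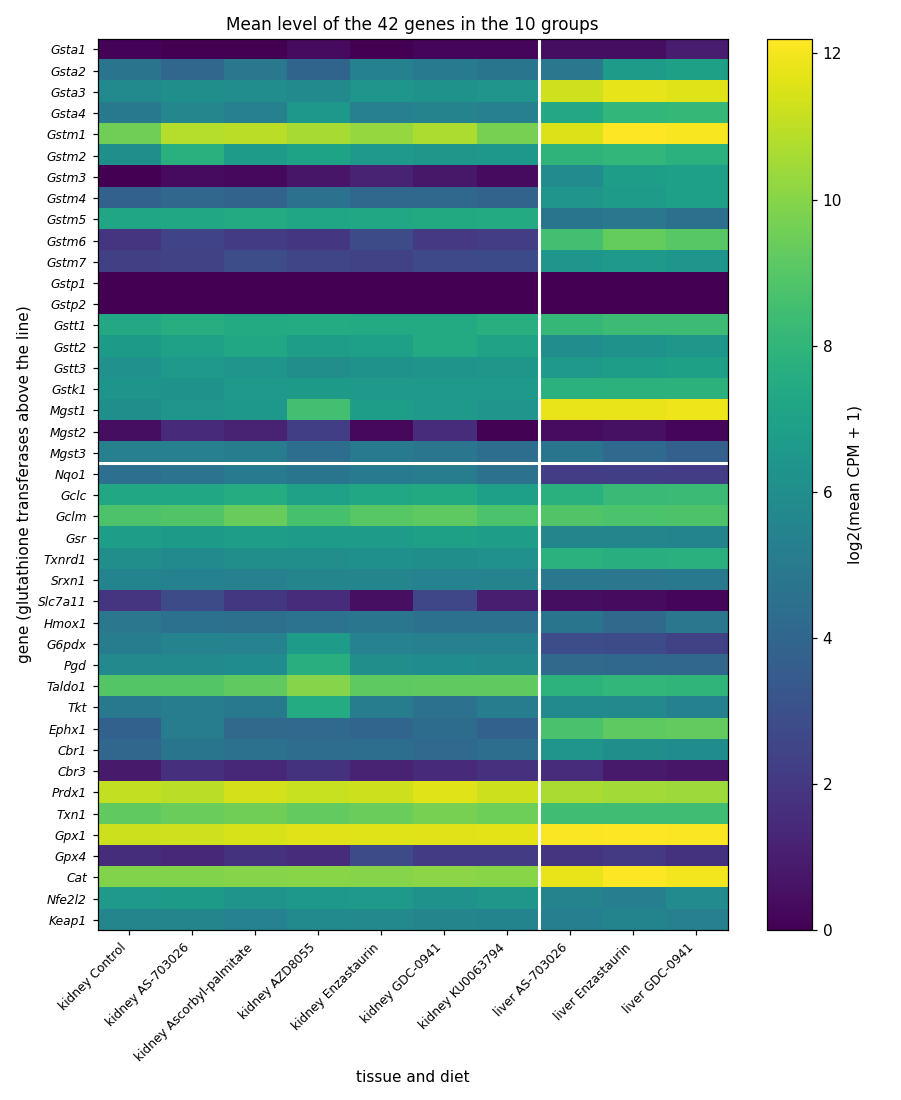
Heat map of log2(mean CPM + 1) for the 42 genes (rows) in the 7 kidney and 3 liver groups (columns), scaled within each tissue; the horizontal line parts the transferases from the other genes. Gsta3 and Mgst1 stand out in the 3 liver columns, Tkt, Pgd and Mgst1 in the kidney AZD8055 column, and Gstp1 and Gstp2 are at 0 in all 10 columns.

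Kidney and liver were compared over AS-703026, Enzastaurin and GDC-0941, the diets given in both, with 12 libraries a tissue scaled together. Whether a kidney and a liver with the same replicate number came from 1 mouse is not stated, and they were treated as separate. Most transferases were far lower in kidney: 13 of 16 tested were called lower and 1 higher. Of the 21 other genes, 10 were called lower and 7 higher. Together 31 of 37 genes were called, where 77.4% of all genes tested were called, so the share called is close to the background. The directions were 8 higher and 23 lower, against 39.2% and 38.2% of all genes. How many of all genes had kidney and liver libraries without overlap was not counted. Tissue ranges without overlap are therefore given below as description only. With library totals and no scaling factors, a choice made after seeing the data that moved the median of all genes by 0.67, the split was 14 higher and 20 lower, and 13 transferases were still lower.

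The alpha class carried some of the largest differences. Gsta3 is a major constitutive alpha enzyme of mouse liver. It had 36.5 to 88.3 CPM in kidney (median 57.9) and 2978 to 4931 in liver (median 3783). The 2 ranges were far apart, and the change was -6.01 ± 0.16 (adjusted p = 4.61e-21). Gsta4, which clears the lipid aldehyde hydroxynonenal, had 23.8 to 72.3 CPM in kidney and 153 to 425 in liver, again without overlap (-3.09 ± 0.16, adjusted p = 5.56e-15). Gsta2, an inducible alpha enzyme that shares most of its end with its neighbours, had 2.88 to 55.5 CPM in kidney and 11 to 220 in liver, and its ranges overlapped (-2.02 ± 0.33, adjusted p = 4.36e-06).

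The mu genes lie in 1 cluster on chromosome 3 (107895821 to 108044894), and they did not move together between the tissues. Gstm3 had 13 counts over the 12 kidney libraries, 0 to 3.91 CPM, and 61.7 to 205 CPM in liver (-8.26 ± 0.39, adjusted p = 4.62e-16). Gstm6 had 0.716 to 9.78 CPM in kidney and 383 to 1047 in liver (-7.59 ± 0.22, adjusted p = 2.58e-20). Neither gene had a kidney library within its liver range. Gstm7 (-4.93 ± 0.13), Gstm4 (-3.33 ± 0.12), Gstm1 (-2.02 ± 0.19) and Gstm2 (-1.67 ± 0.27) were lower as well. Gstm5, at the other end of the cluster and on the opposite strand from the rest, went the other way: 87.4 to 176 CPM in kidney (median 119) and 24.7 to 41.9 in liver (median 31.4). Its kidney libraries all lay above the liver ones (1.99 ± 0.10, adjusted p = 3.43e-15). It was the 1 transferase called higher in kidney in this fit.

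Among the theta enzymes, neighbours on chromosome 10, Gstt1 was lower in kidney (-1.45 ± 0.11) and so was Gstt3 (-1.06 ± 0.10), while Gstt2 had 60.6 to 184 CPM in kidney and 55.5 to 130 in liver. The Gstt2 ranges overlapped and the change, 0.22 ± 0.13, did not pass (adjusted p = 0.144). It passed as higher in kidney with library totals (0.88), with RLE scaling (0.33, adjusted p = 0.0294) and by DESeq2 (0.33, adjusted p = 0.0262). Gstk1, the kappa enzyme of mitochondria and peroxisomes, was lower in kidney (-2.07 ± 0.09). Of the microsomal genes, Mgst1 had 48.1 to 182 CPM in kidney (median 71.2) and 3600 to 5005 in liver (median 4706), a change of -5.92 ± 0.21 (adjusted p = 1.63e-18). Mgst3 spanned 6.52 to 43.0 CPM in kidney and 6.08 to 40.8 in liver, with nearly the same range in both (0.13 ± 0.30, adjusted p = 0.705; 0.80 with library totals, which passed).

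The other NRF2 targets differed in direction. G6pdx, the first step of the pentose phosphate pathway, a source of NADPH, had 23.96 to 38.3 CPM in kidney and 3.20 to 12.1 in liver, with no overlap (2.23 ± 0.14, adjusted p = 1.03e-13). Pgd, the next NADPH-forming step, had 38.1 to 62.7 CPM in kidney and 12.4 to 27.6 in liver (1.16 ± 0.11, adjusted p = 7.79e-10). Of the later enzymes, Taldo1 was higher (0.45 ± 0.08) and Tkt was lower (-1.36 ± 0.10) in kidney. Nqo1, a quinone reductase often used as a marker of NRF2 activity, had 16.4 to 36.9 CPM in kidney and 0 to 7.89 in liver. No liver library reached the lowest kidney value (2.23 ± 0.20, adjusted p = 2.67e-10).

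Ephx1, Cat and Cbr1 were among the genes that were higher in liver. Ephx1, the microsomal epoxide hydrolase, had 7.65 to 65.4 CPM in kidney and 397 to 955 in liver (-5.30 ± 0.25, adjusted p = 2.88e-16). Cat, catalase, had 657 to 944 CPM in kidney and 3644 to 6854 in liver (-2.69 ± 0.12, adjusted p = 1.31e-16). Cbr1, a carbonyl reductase, had 10.7 to 22.8 and 69.1 to 120 CPM (-2.46 ± 0.11, adjusted p = 1.01e-16). None of these 3 had overlapping tissues. Gpx1, a glutathione peroxidase, was lower in kidney too (-1.30 ± 0.12). Gpx4 was not called (-0.55 ± 0.45).

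The thioredoxin and glutathione synthesis genes were mixed. Txnrd1, which reduces thioredoxin, had 35.4 to 62.2 CPM in kidney and 221 to 309 in liver (-2.44 ± 0.08, adjusted p = 2.67e-19), while thioredoxin itself, Txn1, was slightly higher in kidney (0.35 ± 0.07). Srxn1 (-0.09 ± 0.09) and Prdx1 (0.07 ± 0.12) were not called, and both passed as higher in kidney with library totals. Prdx1 also passed by DESeq2 (adjusted p = 0.0495). Gclc, the catalytic subunit of the first enzyme of glutathione synthesis, was lower (-1.46 ± 0.12). Its modifier subunit Gclm (-0.46 ± 0.10), the heme oxygenase Hmox1 (-0.63 ± 0.15) and Keap1 (-0.42 ± 0.08) were called lower, but with library totals they turned to 0.21, 0.05 and 0.26. Gsr, glutathione reductase, was higher in kidney (0.51 ± 0.10), as was Nfe2l2 (0.31 ± 0.09). Slc7a11, the cystine carrier, gave 82 counts in kidney and 10 in liver; it had 0 to 8.66 CPM in kidney and 0 to 1.10 in liver, and the change of 1.85 ± 1.13 was not called (adjusted p = 0.137).

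Within the liver, 3 of 16 transferases were called lower on AS-703026 than on Enzastaurin, and 3 of 16 than on GDC-0941. Against Enzastaurin, Gsta2, Gstm6 and Gsta4 were called lower, 3 of 35 genes, where 2.96% of all genes were called and 1.03% were called lower. Against GDC-0941, Gsta2, Gstm4 and Gsta4 were called lower, 3 of 35, with a background of 3.22% called and 1.18% lower. No gene of the list was called higher in either. The changes of 15 of 16 transferases were below 0 against Enzastaurin (median -0.26) and of 13 of 16 against GDC-0941 (median -0.33), beside 50.9% and 50% of all genes, and most of them did not pass the test. The other NRF2 genes were split, 8 and 9 of 19 below 0, with medians of 0.04 and 0.03. Both comparisons use the same 4 AS-703026 libraries.

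Gsta2 showed the largest of these changes. Its levels on AS-703026 were 8.74, 50.8, 29.1 and 25.3 CPM, on Enzastaurin 88.8, 61.0, 91.0 and 172, and on GDC-0941 66.3, 146, 110 and 155. All 4 AS-703026 libraries lay below all 8 others. The change was -1.94 ± 0.42 against Enzastaurin (adjusted p = 0.0209) and -2.15 ± 0.41 against GDC-0941 (adjusted p = 0.0106). Gsta4 had 122, 181, 139 and 208 CPM on AS-703026, 218, 265, 252 and 334 on Enzastaurin, and 247, 313, 269 and 298 on GDC-0941. The groups again did not overlap, with changes of -0.72 ± 0.17 (adjusted p = 0.0302) and -0.80 ± 0.17 (adjusted p = 0.0156). Gsta2 and Gsta4 lie in 1 cluster on chromosome 9 (78182774 to 78355788), whereas Gsta3 is on chromosome 1.

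Gstm6 had 326, 414, 297 and 456 CPM on AS-703026, 524, 589, 612 and 821 on Enzastaurin, and 428, 615, 583 and 447 on GDC-0941. It was below every Enzastaurin library (-0.77 ± 0.17, adjusted p = 0.0272), and it overlapped GDC-0941 (adjusted p = 0.172). Gstm4 was nearly constant on AS-703026, at 81.8, 83.4, 79.7 and 80.2 CPM, and had 105, 117, 131 and 119 on GDC-0941. It lay below GDC-0941 in all 4 libraries (-0.54 ± 0.11, adjusted p = 0.0136), and below the Enzastaurin values of 86.6, 114, 106 and 115 as well, where it was not called (adjusted p = 0.0788).

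Other members had separate groups without a call. In all, 8 genes lay wholly below Enzastaurin (4.05% of all genes did) and 8 wholly below GDC-0941 (4.62%). Against Enzastaurin the others were Gstm1 (adjusted p = 0.0556), Gsta3 (0.0619), Gstm3 (0.104) and Ephx1 (0.166). Against GDC-0941 they were Gclc (0.0663), Ephx1 (0.0847), Gstm1 (0.0909), Gstt2 (0.166) and Gsta3 (0.191). Gstm1, for example, had 2577 to 3319 CPM on AS-703026, 3578 to 5839 on Enzastaurin and 3504 to 4879 on GDC-0941. Tkt alone lay wholly above GDC-0941 (5.09% of all genes did), at 51.4 to 56.0 against 33.1 to 50.7 CPM (adjusted p = 0.123).

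Several measures other than these genes moved with liver AS-703026. Satellite-like gene models took 0.857% to 1.77% of counts there and 0.124% to 0.645% in the other liver libraries. The 4 red cell markers summed to 4404 to 7193 CPM against 1197 to 4183, and the 5 fibroblast markers to 437 to 587 against 301 to 413. The hepatocyte sum overlapped (105300 to 124400 against 97420 to 125000), and 3 of the 10 hepatocyte markers were called higher in each comparison. The other 7 lay below 0 against Enzastaurin (median of the 10, -0.30), and 5 of the 10 lay below 0 against GDC-0941 (median -0.01). The summed proximal tubule markers were 141 to 189 CPM on AS-703026 and 290 to 413 in the other liver libraries, and the 1 marker of that list tested in liver was called lower in both comparisons. Called higher were all 3 red cell markers tested against Enzastaurin and 0 against GDC-0941, 1 of 4 fibroblast markers against GDC-0941 and 0 against Enzastaurin, and 2 of 7 immune markers against GDC-0941 and 0 against Enzastaurin. With the satellite share as a covariate, no gene of the list was called in either comparison, and 12 and 11 of 16 transferases were below 0, with medians of -0.34 and -0.28 beside -0.26 and -0.33 without the covariate. Leaving out 1 library at a time gave 0 to 6 calls against Enzastaurin and 1 to 5 against GDC-0941; without AS-703026 replicate 3 the counts were 0 and 1, and without replicate 2 they were 5 and 5. Against Enzastaurin the count was also 1 without AS-703026 replicate 1, 0 without Enzastaurin replicate 4 and 6 without Enzastaurin replicate 1. Gsta2 against GDC-0941 stayed below 0.05 with each library left out (0.0041 to 0.0397). Every AS-703026 library had a higher satellite share than every other liver library. The covariate therefore could not separate the share from the diet, and the lost calls decide nothing about it. The part of the satellite share and of these markers in these results was not tested.

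**Figure D2:**
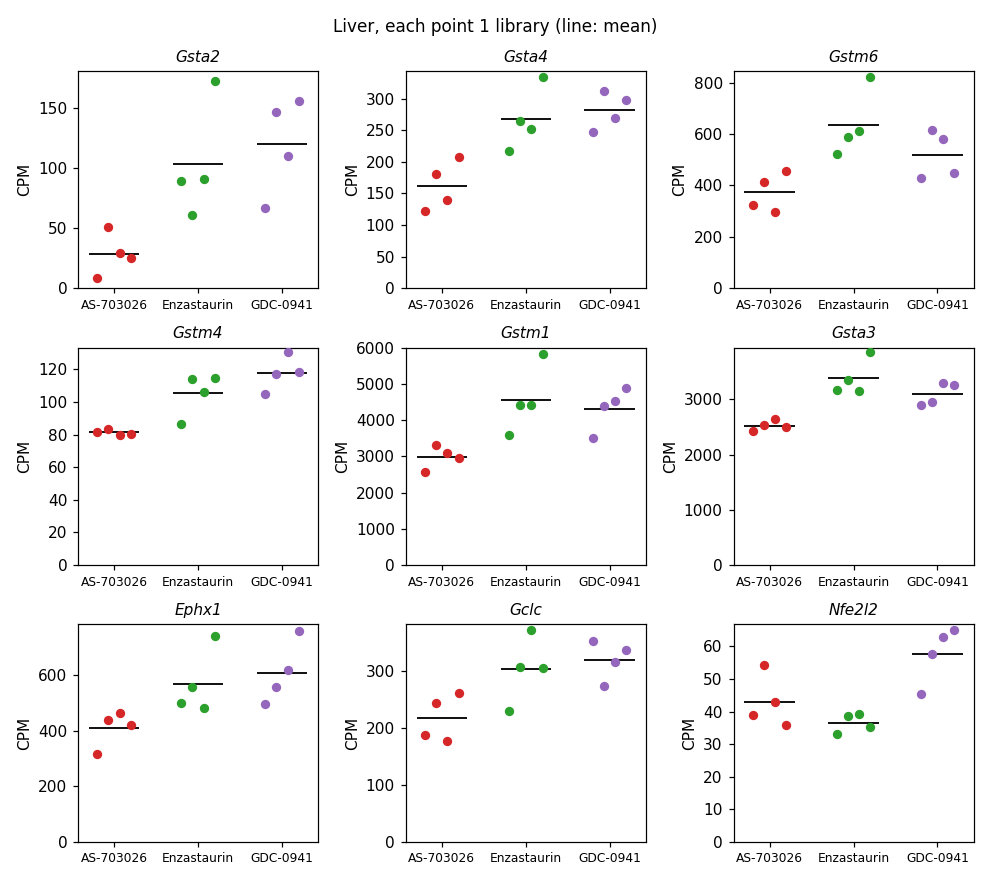
CPM (vertical axes from 0) of 9 genes in each of the 12 liver libraries by diet; lines are group means. For Gsta2, Gsta4, Gstm4, Gstm1, Gsta3 and Ephx1 the 4 AS-703026 points lie below the other 8, while the Nfe2l2 mean is highest on GDC-0941, at 57.8 CPM.

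Between Enzastaurin and GDC-0941 in liver, edgeR called 0 of 35 genes and 0% of all genes, voom called 0, and DESeq2 called 1. With edgeR, 4 of 35 had an unadjusted p under 0.05 beside 8.03% of all genes. The smallest p belonged to Nfe2l2, the gene of NRF2 itself. It had 33.0, 38.6, 39.3 and 35.2 CPM on Enzastaurin and 45.5, 57.5, 63.0 and 65.1 on GDC-0941. The groups did not overlap (2.44% of all genes lay wholly lower on Enzastaurin), and the change was -0.66 ± 0.14 with an adjusted p of 0.227 by edgeR and 0.028 by DESeq2. Gstm5 was next, with 29.8, 28.4, 22.7 and 32.8 CPM on Enzastaurin against 23.96, 21.8, 20.5 and 19.7 (0.41 ± 0.13, adjusted p = 0.467).

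In kidney each compound was compared with the same 6 control libraries, so the 6 comparisons are not independent of each other. No gene of the list was called lower in any of them. Calls were made for AZD8055 and AS-703026. Those on AZD8055 were all lost without its replicate 4, and the 1 on AS-703026 was lost with any of 7 libraries left out.

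On AZD8055, 6 of 36 genes were called higher (5.46% of all genes were called and 3.77% called higher). They were 4 enzymes of the pentose phosphate pathway and 2 transferases. Tkt, transketolase, had 24.4, 36.9, 33.6 and 638 CPM against 20.9 to 41.3 in controls (2.61 ± 0.54, adjusted p = 0.00558). Pgd had 69.6, 49.5, 53.1 and 613 CPM against 37.3 to 66.8 (1.88 ± 0.43, adjusted p = 0.0105). G6pdx had 32.0, 43.2, 33.0 and 312 CPM against 21.97 to 43.0 (1.59 ± 0.40, adjusted p = 0.018). In each of these 3, replicate 4 stood alone and the other libraries overlapped the controls or lay just above them. Taldo1, transaldolase, had 563, 595, 683 and 2170 CPM against 418 to 607 (1.02 ± 0.24, adjusted p = 0.0141), with its first 2 replicates inside the control range.

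Mgst1 had 88.0, 72.5, 68.4 and 1282 CPM on AZD8055 against 28.4 to 83.7 in controls (2.502 ± 0.55, adjusted p = 0.00807). Gsta4 had 44.4, 38.3, 35.4 and 242 CPM against 24.9 to 34.9 (1.59 ± 0.38, adjusted p = 0.0141). Gsta4 was 1 of 3 genes whose 4 libraries all lay above the controls, with Gstm1 and Gstm2; 1.48% of all genes did so. Gstm2, a mu enzyme, had 109, 108, 109 and 209 CPM against 58.2 to 93.1 (0.99 ± 0.39, adjusted p = 0.14), and it was called (adjusted p = 0.0188) when AS-703026 replicate 4 was left out of the fit. Without AZD8055 replicate 4 its change was 0.68 ± 0.41 (adjusted p = 0.512). Gstm1 had 1068, 1771, 1479 and 1803 CPM against 670 to 849 (1.04 ± 0.34, adjusted p = 0.0635 by edgeR). DESeq2 called it (adjusted p = 0.0436), and edgeR did when Ascorbyl-palmitate replicate 1 was left out (adjusted p = 0.0322). Without AZD8055 replicate 4 edgeR gave an adjusted p of 0.233.

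Replicate 4 is the library with the summed adipocyte markers of 17650 CPM, and all 5 adipocyte markers that were tested were called higher on AZD8055. Its levels were 2843 CPM for Adipoq (adiponectin), 4140 for Ucp1 (the uncoupling protein of brown fat) and 7144 for Cfd (adipsin), while its proximal tubule sum, 3674 CPM, was the lowest of the kidney libraries. Without it, 0 of 36 genes were called and 0.204% of all genes were. Then 12 of 15 transferases were above 0 (median 0.25), and the values were 0.30 ± 0.14 for Taldo1, 0.19 ± 0.31 for Mgst1 and 0.95 ± 0.35 for Gstm1. Tkt was at 0.05 ± 0.21, Pgd at 0.10 ± 0.18, G6pdx at 0.02 ± 0.19 and Gsta4 at 0.39 ± 0.25. The smallest p was that of Gpx1, at 3770, 3499 and 4123 CPM in the first 3 replicates against 1963 to 2983 in controls (0.63 ± 0.15, adjusted p = 0.0606). Replicate 4 had 1554 CPM of Gpx1, below every control. With replicate 4 included, voom called Gpx1 higher (0.64, adjusted p = 0.00976).

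**Figure D3:**
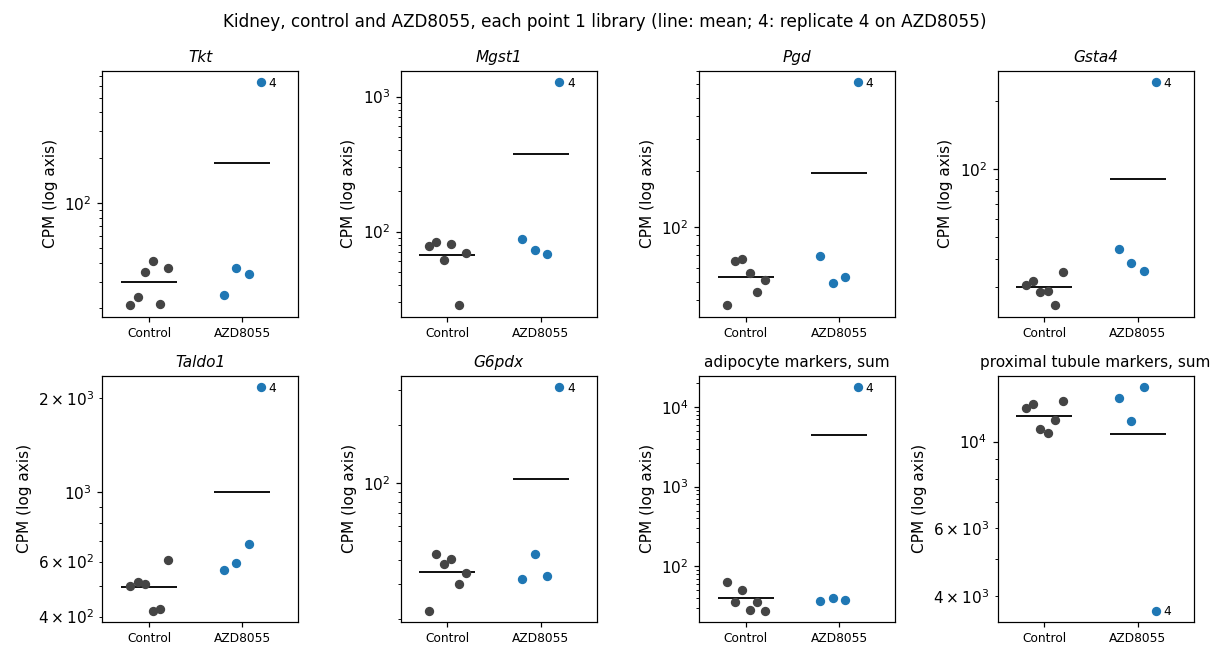
CPM (log axes) of 6 genes and of 2 summed marker lists in the 6 control and 4 AZD8055 kidney libraries; lines are means and replicate 4 is numbered. Replicate 4 is at 638 CPM for Tkt and 17650 for the adipocyte sum, while the other 3 lie near the controls.

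On AS-703026, 1 of 36 genes was called, Gstm2 (0.922% of all genes were called, and 0.452% called higher). It had 82.8, 78.0, 113 and 585 CPM against 59.3, 93.1, 64.3, 58.2, 60.2 and 67.1 in controls. Replicate 4 was far above the other 3, and replicates 1 and 2 lay within the control range. The change was 1.69 ± 0.39 (adjusted p = 0.0394), and without replicate 4 it was 0.47 ± 0.27 (adjusted p = 0.594). The call was also lost when control 1, 3, 4 or 5 or Enzastaurin 2 or 4 was left out of the fit, and voom called 0 genes. Replicate 4 is the library with the high inner medulla sum. Its principal cell markers summed to 2448 CPM against 212 to 316 in controls, and its satellite-like share was 16.6%. Their part in the result was not tested.

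Gstm1, a major mu-class enzyme, varied widely among treated kidneys. Its control values were 670, 801, 754, 849, 701 and 684 CPM, a mean of 743 ± 71.2 (SD, n = 6). On AS-703026 they were 1155, 1189, 2015 and 2927, on Ascorbyl-palmitate 3829, 730, 2171 and 1023, and on GDC-0941 2084, 991, 2560 and 967. All AS-703026 and all GDC-0941 libraries lay above all controls (1.72% and 1.33% of all genes did so), and 1 Ascorbyl-palmitate library did not. The changes were 1.29 ± 0.34 for AS-703026 (adjusted p = 0.0534), 1.38 ± 0.34 for Ascorbyl-palmitate (adjusted p = 0.0679) and 1.15 ± 0.34 for GDC-0941 (adjusted p = 0.134). None was called by the edgeR fit of all kidney libraries with the filter on low counts, and DESeq2 gave adjusted p of 0.01, 0.00984 and 0.0293. Without the filter edgeR called all 3, with adjusted p of 0.00045, 9.29e-05 and 0.0106. The changes stayed close to those with the filter, at 1.276, 1.432 and 1.155. In that setting Gsta2 in liver, on AS-703026 against Enzastaurin, had an adjusted p of 6.36e-31 with 4 libraries a group. The edgeR p-values without the filter are therefore not taken as support for a difference. On AS-703026 Gstm1 was also called by edgeR with only the 2 groups compared (adjusted p = 0.0108) and when Ascorbyl-palmitate replicate 1 (0.0383) or AZD8055 replicate 4 (0.0304) was left out. Without AS-703026 replicate 4 it was 0.98 ± 0.35 (adjusted p = 0.317). Without Ascorbyl-palmitate replicate 1 the change on that diet was 0.86 ± 0.31 (adjusted p = 0.453), and without its replicate 2 or control 2 edgeR called 1 gene there. Enzastaurin libraries had 1165, 1539, 834 and 1359 CPM (0.72 ± 0.34, adjusted p = 0.611), and KU0063794 libraries 789, 644, 792 and 1123 (0.17 ± 0.34, adjusted p = 0.92).

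The summed markers of the thick ascending limb, a nephron segment that runs from the medulla into the cortex, moved with Gstm1 in several of these groups. The controls had 1471 to 2157 CPM. The 4 Ascorbyl-palmitate libraries had 5695, 1745, 5114 and 2288, and the GDC-0941 libraries 3726, 984, 3637 and 1715, in the same order of replicates. In both diets replicates 1 and 3 were high in Gstm1 and in the marker sum. On AS-703026 the sums were 2986, 2771, 3114 and 2552 CPM, all above the controls, and on AZD8055 they were 1919, 2086, 1905 and 1042, with no library above the controls, while Gstm1 was higher there in all 4. The thin limb and inner medulla markers were high in the same replicates, at 786, 148, 649 and 164 CPM on Ascorbyl-palmitate. On GDC-0941 they summed to 351, 102.5, 334 and 168 CPM, and on AS-703026 to 224, 396, 483 and 3109. On AZD8055 they summed to 141, 208, 162 and 159 CPM. Principal cell sums were 563, 245, 507 and 278 CPM on Ascorbyl-palmitate and 414, 243, 388 and 252 on GDC-0941. Replicates 1 and 3 on GDC-0941 also had satellite-like shares of 18.8% and 7.82%, against 0.0506% and 0.0811% in replicates 2 and 4. Their total counts were 1199109 and 1647753, against 3844047 and 4016758. On Ascorbyl-palmitate the shares were 0.353%, 0.0613%, 0.0614% and 8.93%. The part of any of these markers, of the satellite share or of the total counts in the Gstm1 values was not tested.

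**Figure D4:**
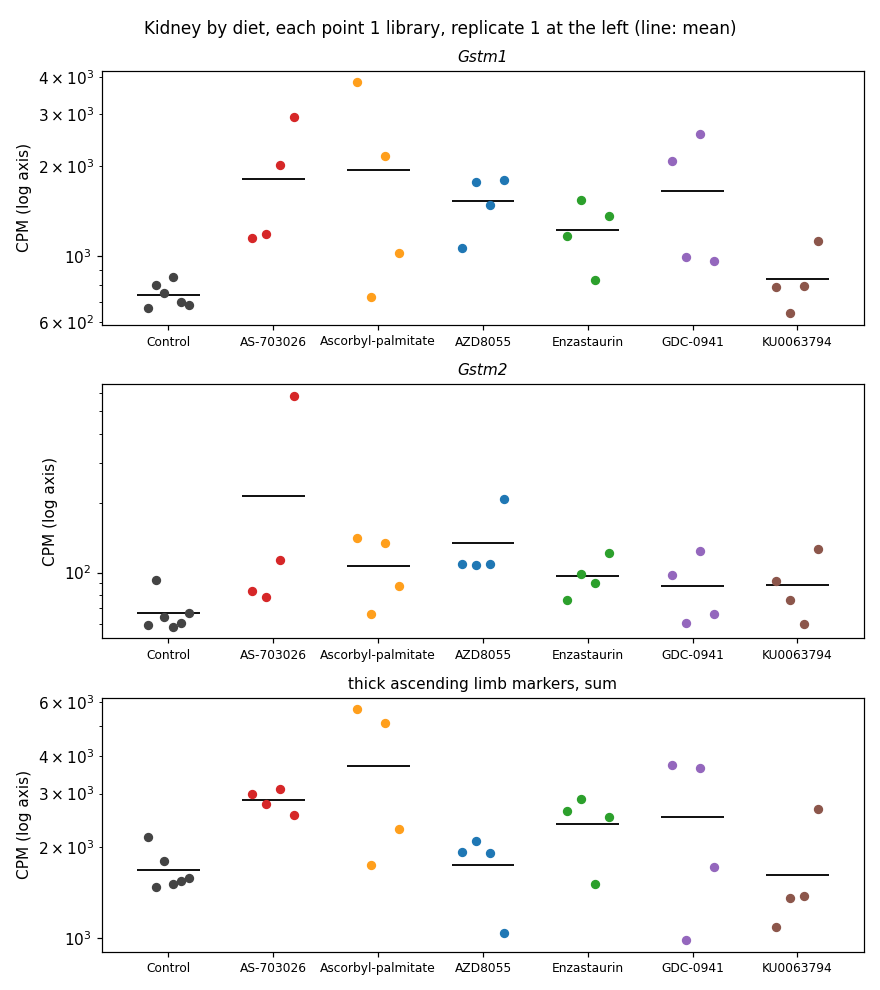
CPM (log axes) of Gstm1, Gstm2 and the summed thick ascending limb markers in the 30 kidney libraries by diet, replicate 1 at the left of each group; lines are means. In Ascorbyl-palmitate and GDC-0941, replicates 1 and 3 are high in Gstm1 and in the marker sum, and AS-703026 replicate 4 is the highest Gstm2 value at 585 CPM.

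On Ascorbyl-palmitate edgeR called 0 of 36 genes (0.0427% of all genes were called), voom 2 and DESeq2 1, and 5 had an unadjusted p under 0.05, all higher, beside 5.29% of all genes in that direction. Beside Gstm1, the smallest p belonged to Gclm, which had 876, 494, 701 and 523 CPM against 434, 413, 554, 443, 440 and 344 in controls. Replicates 1 and 3 lay above the controls and the other 2 did not (0.57 ± 0.19, adjusted p = 0.18 by edgeR). Voom called Gclm (adjusted p = 0.0454). Replicates 1 and 3 are also those with the high thick ascending limb sums, 5695 and 5114 CPM. The part of that segment in the Gclm values was not tested. The groups did not overlap for Txn1 and Gstt2, with 0.836% of all genes wholly higher. Txn1 had 711 to 803 CPM against 504 to 679, and Gstt2 had 135 to 199 against 81.6 to 130.

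On GDC-0941 edgeR called 0 of 36 genes (0.137% of all genes), voom 1 and DESeq2 3, and 7 had an unadjusted p under 0.05, all higher (5.55% of all genes). Txn1 had 781, 830, 963 and 737 CPM against 624, 642, 534, 587, 504 and 679. All 4 lay above the controls (0.48 ± 0.15, adjusted p = 0.181 by edgeR). Txn1 was called by voom (adjusted p = 0.0444) and by DESeq2 (adjusted p = 0.0363).

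On Enzastaurin 0 of 36 genes were called by edgeR, voom or DESeq2 (0% of all genes by edgeR), and 3 had an unadjusted p under 0.05, all higher (2.41% of all genes). Gsta3 had 106, 83.1, 74.2 and 76.3 CPM on Enzastaurin against 50.5, 68.3, 52.9, 61.2, 39.4 and 59.7 in controls. No value overlapped (0.87% of all genes lay wholly higher), and the change was 0.61 ± 0.19 (adjusted p = 0.318). Nqo1 was next, with 46.0, 32.1, 22.2 and 28.2 CPM against 14.7 to 34.6, which overlapped (0.60 ± 0.27, adjusted p = 0.598). In Enzastaurin replicate 1 the hepatocyte markers summed to 2363 CPM, the highest of the kidney libraries. That library also had 238 CPM of Mgst1, and without it the Gsta3 change was 0.50 ± 0.20 (adjusted p = 0.678).

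KU0063794, with AZD8055 the other mTOR inhibitor, gave 0 calls of 36 by edgeR (0.0427% of all genes), 1 by voom and 0 by DESeq2, and 3 genes had an unadjusted p under 0.05, all higher (3.69% of all genes). Gsta3 had 82.7, 79.9, 94.7 and 72.6 CPM, each above every control (0.964% of all genes lay wholly higher), a change of 0.57 ± 0.19 (adjusted p = 0.29). Gpx1 had 2925, 3317, 3454 and 3473 CPM against 1963 to 2983, with 1 library inside the control range (0.43 ± 0.19, adjusted p = 0.456 by edgeR). It was the gene called by voom (0.49, adjusted p = 0.024). Gstm7 was wholly higher too, at 5.02 to 6.93 against 2.20 to 4.88 CPM, both low levels.

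Small positive values were common among kidney transferases. The changes of 13 of 15 were above 0 on AS-703026, 14 on Ascorbyl-palmitate, 10 on AZD8055, 14 on Enzastaurin, 14 on GDC-0941 and 14 on KU0063794. The shares of all genes above 0 were 52.8%, 50%, 52.9%, 48.8%, 50.9% and 47%. The medians were 0.30, 0.25, 0.16, 0.29, 0.33 and 0.32. Since all 6 comparisons share their controls, the counts are given side by side only. For the 21 other genes the medians were 0.07, 0.23, 0.07, 0.18, 0.15 and 0.16. At an unadjusted p under 0.05, 5 of 36 genes were higher on AS-703026 (7.01% of all genes) and 11 on AZD8055 (12%), and 0 were lower.

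Whether a difference between compounds itself differed between kidney and liver was tested over AS-703026, Enzastaurin and GDC-0941. None of the 37 genes was called by edgeR (0.163% of all genes were), and 6 had an unadjusted p under 0.05 beside 10% of all genes. On simulated data this edgeR test called 18% of 2-fold changes, so the lack of calls does not show that differences were absent. DESeq2 called 2, Prdx1 and Nfe2l2, and voom 0. Nfe2l2 had the smallest p (adjusted p = 0.152 by edgeR, 0.0331 by DESeq2). In kidney it had 124, 95.6, 72.6 and 107 CPM on AS-703026, 104, 88.8, 82.0 and 91.8 on Enzastaurin and 67.2, 89.0, 67.1 and 85.7 on GDC-0941. In kidney, GDC-0941 replicates 1 and 3 were the lowest and the other 2 overlapped the other diets. Replicates 1 and 3 are the GDC-0941 kidney libraries with the higher satellite-like shares (18.8% and 7.82%), whose part was not tested. In liver it had 38.9, 54.4, 43.0 and 35.8 CPM on AS-703026, of which 1 lay above the lowest GDC-0941 value of 45.5. Ephx1 was next (adjusted p = 0.276): on AS-703026 it had 9.86, 17.6, 23.9 and 82.9 CPM in kidney, replicate 4 the highest, and 316, 439, 463 and 419 in liver, where every value lay below the other diets.

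Other genes of the pathway were counted from lists set by function. Of 20 further NRF2 targets tested in liver, 2 were called lower on AS-703026 than on Enzastaurin, where 2.96% of all genes were called and 1.03% called lower. Aox1, an aldehyde oxidase, had 20.6, 29.0, 30.2 and 33.7 CPM against 62.8, 51.8, 47.1 and 52.4 (-0.90 ± 0.16, adjusted p = 0.006), and Ces1g, a carboxylesterase, had 114, 221, 188 and 247 against 303 to 314 (-0.67 ± 0.17, adjusted p = 0.0449). Aox1 was also lower than on GDC-0941, at 60.3, 58.9, 68.8 and 80.0 CPM (-1.23 ± 0.16, adjusted p = 0.000935), the 1 call of that list there. Neither gene overlapped between the groups compared. Of 9 targets of the receptors CAR, PXR and AhR, which control other detoxification genes, 1 was called against Enzastaurin: Por, the reductase that serves the cytochromes P450, was higher (0.73 ± 0.15, adjusted p = 0.0143), beside the same 2.96%.

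Of 14 other glutathione enzymes tested in liver, 2 were called between AS-703026 and GDC-0941, beside 3.22% of all genes. Hagh, which hydrolyses glutathione thioesters, was lower (-0.42 ± 0.10, adjusted p = 0.03), and Chac1, which degrades glutathione, was higher (1.54 ± 0.39, adjusted p = 0.0442). In kidney, Me1 (malic enzyme, 1 of 23 further targets tested) and Glrx5 (a glutaredoxin, 1 of 18 other glutathione enzymes) were called higher on AZD8055. These shares, 4.35% and 5.56%, are close to the 5.46% of all genes called there. Me1 had 783, 891, 986 and 1631 CPM against 576 to 771 in controls (0.70 ± 0.16, adjusted p = 0.0113), and Glrx5 had 373, 373, 385 and 537 against 212 to 351 (0.62 ± 0.15, adjusted p = 0.0147). For both, all 4 AZD8055 libraries lay above the controls and replicate 4 was the highest. Without replicate 4 neither was called (0.42 ± 0.13, adjusted p = 0.164 for Me1, and 0.46 ± 0.15, adjusted p = 0.159 for Glrx5). Of the partners and regulators of NRF2, such as the small MAF proteins and BACH1, 0 were called in any comparison of diets.

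Between the tissues, genes for the breakdown of glutathione outside the cell differed in direction. Ggt1, the gamma-glutamyltransferase of the proximal tubule, had 621 to 974 CPM in kidney and 3 counts over the 12 liver libraries. Dpep1, the dipeptidase that acts next, was higher by 7.43 in log2. Anpep, an aminopeptidase, was lower in kidney, at 4.05 to 12.97 against 37.35 to 73.39 CPM (-2.58 ± 0.12, adjusted p = 5.27e-16). The secreted peroxidase Gpx3 had 2867 to 7453 CPM in kidney and 1.83 to 13.6 in liver. Of 19 other glutathione enzymes tested, 10 were called higher and 8 lower in kidney, and of 23 further NRF2 targets 6 were higher and 16 lower, where 77.4% of all genes were called, 39.2% higher and 38.2% lower. Blvrb (-3.34), Prdx6 (-2.67), Abcc3 (-6.27) and Aox1 (-5.41) were among the lower ones, as was Gsto1, an omega-class transferase outside the 42 genes (-3.34).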

How the data were processed

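Per the labels, RNA was extracted with the PureLink kit and the libraries are biological replicates with littermate controls. The authors deposited raw counts per Ensembl gene for all libraries. The build mm10 and the tools STAR 2.5.2b, featureCounts 1.5, Trimmomatic 0.32 and bcl2fastq 1.8.4 are listed in the submitters' processing notes, without an order. Not given in the sources used here are the annotation release, strand setting, use of molecular identifiers and treatment of reads with several locations. Symbols came from GENCODE M21 (42462 of 43629 IDs matched). Counts were analysed in R 4.3.3 with edgeR 4.0.16 (filterByExpr, TMM, quasi-likelihood test), with 1 fit of 30 kidney libraries, 1 of 12 liver libraries and 1 of 24 libraries of both tissues, and Benjamini-Hochberg adjustment over the 11719, 9490 and 12262 genes tested. SE is the change divided by the square root of F. The biological coefficient of variation was 0.2935, 0.191 and 0.2341. No pair of libraries held the same values. The fits were tested on simulated data. For kidney AS-703026 against control, 53% of 2-fold and 87% of 4-fold changes were called. These shares were 58% and 94% for liver AS-703026 against GDC-0941, and 18% and 67% for the interaction. A gene that was not called may therefore still differ. The members and lists were chosen with earlier results of these data known. Values per library are given for members called in a comparison of diets, or else the 2 with the smallest p, and for the 4 largest tissue changes in each direction among the transferases and among the others. Alternatives were limma 3.58.1 (voom), DESeq2 1.42.0, other scalings and filters, a satellite covariate, a replicate block and leaving out each library.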

Additional observations from a re-analysis of the deposited data

Results flagged for a closer look

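In groups of 4 or 6 libraries, 42 sets of values of the genes named in a comparison of diets were checked for 1 library far from the rest, and 9 had one. Chance flags about 1 in 20 sets that are independent and not chosen by their values. These genes were chosen for their calls or p-values, and 6 of the 9 are the same library, so that rate does not apply to them. In kidney AZD8055 replicate 4, the library with the adipocyte markers, this held for Tkt (638.1 CPM), Mgst1 (1282 CPM), Pgd (613.4 CPM), Gsta4 (242.2 CPM), Taldo1 (2170 CPM) and G6pdx (311.6 CPM). These are the 6 genes called on AZD8055, and none was called without that library. In kidney AS-703026 replicate 4 it held for Gstm2 (584.6 CPM), the gene called on that diet. Among the controls it held for replicate 2 in Gstm2 (93.09 CPM) and replicate 4 in Nqo1 (34.63 CPM); both widen the control range against which those genes are read.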

How the results depend on the processing

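Counts of genes called in each comparison moved with the choice of test. With no filter on low counts they were 3 (kidney AS-703026), 1 (Ascorbyl-palmitate), 1 (GDC-0941), 7 (liver AS-703026 against Enzastaurin), 10 (against GDC-0941), 1 (liver Enzastaurin against GDC-0941) and 4 (interaction). On AZD8055, Gstm1 and Gstm2 were called in addition to the genes called with the filter. For Gstm1 the setting without the filter lowered adjusted p steeply at similar changes, and calls in that setting are not taken as support. With voom they were 0 (kidney AS-703026), 2 (Ascorbyl-palmitate), 2 (AZD8055), 1 (GDC-0941), 1 (KU0063794), 5 and 5 (liver AS-703026 against Enzastaurin and against GDC-0941). With DESeq2 they were 3, 1, 2 and 3 (kidney AS-703026, Ascorbyl-palmitate, AZD8055, GDC-0941), 7, 8 and 1 (the liver comparisons in the same order) and 2 (interaction); DESeq2 gave no adjusted p for Tkt, Mgst1 and Gsta4 on AZD8055. The satellite covariate gave 0 for kidney AS-703026 and 0 and 0 for liver AS-703026, where it could not be separated from the diet. Leaving out the 11 kidney libraries at 5% or more satellite-like counts was a choice made after seeing the data. It kept replicate 1 alone of kidney AS-703026, so no count is given for that diet. It kept replicates 3 and 4 of AZD8055, and Gsta4, Gstm2, Mgst1, G6pdx, Pgd, Taldo1 and Tkt were called there. Replicate 4 is the library with the adipocyte markers. With only the 2 groups compared, AZD8055 had 0. Replicate numbers did not pair the samples (same-numbered kidney libraries correlated at -0.526 to 0.5109, liver at -0.177 to 0.1495); a replicate block gave 0 for kidney AS-703026 and 0 for AZD8055, 4 and 4 for liver AS-703026, and left the other kidney counts at 0, the tissue count at 31 and the interaction at 0. The cause of these differences was not tested.

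Leaving out 1 library at a time gave 0 to 3 calls for kidney AS-703026 (0 without its replicate 4, without controls 1, 3, 4 or 5 and without Enzastaurin 2 or 4), 0 to 1 for Ascorbyl-palmitate, 0 to 8 for AZD8055 (0 without replicate 4 alone), 0 to 6 for liver AS-703026 against Enzastaurin (0 without AS-703026 3 or Enzastaurin 4), 1 to 5 against GDC-0941, and 31 to 32 between tissues. The tissue comparison had 32 to 34 calls under the other scalings, voom and DESeq2. Of the genes called between tissues, Gclm, Hmox1 and Keap1 changed sign with library totals. Srxn1 and Gpx4, which were not called, changed sign as well, to 0.59 and 0.11. Gsta1, Mgst2, Slc7a11, Cbr3 and Gpx4 had under 300 counts each over all libraries, which limits what can be read from them; Gsta1 and Gpx4 share most of their ends with other genes, and the cause of the low counts was not tested.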
